A study of Mus musculus with 4 samples.

Results

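Cholesterol is built from acetyl-CoA through the mevalonate and sterol pathways, and the transcription factor SREBP2, the product of Srebf2, switches on most of the enzymes. When the endoplasmic reticulum holds enough sterol, INSIG proteins keep SREBP2 and its escort SCAP there, and when sterol is short the factor is carried to the Golgi, cut by proteases and released to the nucleus. Growing cells depend on this supply for membranes, and the kidney epithelium studied here makes cholesterol as well as taking it up. The genes described are Srebf2, the retention protein gene Insig1, and 6 enzymes in pathway order, Hmgcs1, Idi1, Fdft1, Sqle, Cyp51 and Msmo1.

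They were chosen by name, and every probe set annotated to exactly 1 gene symbol among these 8 was used. The rule found 17 probe sets of 7 genes among 22626 probe sets on the array that are not controls, and no probe set carried Insig1 as its single symbol, so Insig1 is not analysed here. Of the 17, 14 were bright enough to be tested, in a set of 13576 tested probe sets of 7847 genes, and 3 were not.

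The study has 4 tumors, each on 1 Affymetrix Mouse Genome 430A 2.0 array. They grew under the skin of nude (NCR Nu/Nu) mice injected with iBMK cells, a line of immortalized baby mouse kidney epithelial cells. Both groups carry the same background, ATG5-/- (no Atg5, hence no functional autophagy) with expression of the survival protein Bcl-2, and neither was treated. In 2 tumors the cells expressed EGFP, a green fluorescent protein, and in the other two they expressed p62-EGFP, the autophagy adaptor p62 fused to it. p62 is itself removed by autophagy, and the comparison asks how tumors that cannot do this differ when more p62 is supplied. Nothing in the labels tells if tumors of 1 group stem from separate mice, cultures or cell clones, so each p-value measures only the spread between these tumors, which may be technical. Nude mice lack T cells but keep other host cells, and a mouse array reads host and tumor RNA alike.

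The values are the authors' MAS5 signals, linear intensities already scaled so that the trimmed mean of every array was 150.04. The median signal was 57.7 to 60.9. The 3' to 5' signal ratio, a sign of RNA integrity, was 0.707 to 0.740 for Gapdh and 1.276 to 1.549 for Actb. The EGFP tumors were less alike than the p62-EGFP tumors, with an SD of the replicate difference over the tested probe sets of 0.604 against 0.273 on the log2 scale. Sqstm1, which encodes p62, read 975.8 and 1156.1 with EGFP (tumors 1 and 2), then 1432.7 and 1687.8 with p62-EGFP (tumors 1 and 2). The log2 difference was 0.54 with an adjusted p of 0.235 (limma). Sqstm1 lies on chromosome 11, where the median log2 difference over 697 tested genes was 0.30. All 6 epithelial markers had a probe set, with summed signals of 1445.8 and 686.8 with EGFP, then 1441.9 and 2112.5 with p62-EGFP, and Cldn7 was the dimmest of them at 0.7, 0.5, 12.7 and 23.4. Macrophage markers summed to 1143.2 and 9001 with EGFP, then to 2041.1 and 2130.5 with p62-EGFP, so EGFP tumor 2 stood apart from the other 3. Skeletal muscle markers summed to 33.0 and 634.2, then to 3303 and 41.3, with p62-EGFP tumor 1 far above the rest.

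In these tumors Srebf2 and Msmo1 were lower with p62-EGFP, at a ratio of 0.506 of the EGFP mean for Msmo1 and of 0.543 and 0.662 for the 2 probe sets of Srebf2, while Hmgcs1, Idi1 and Cyp51 overlapped between the groups on every tested probe set except Hmgcs1 1433444_at, which was slightly higher with p62-EGFP. Fdft1 was lower by a smaller margin on both of its bright probe sets, and for Sqle 1 high tumor, EGFP tumor 2, made up most of the difference. No probe set of these genes passed the test. Differences are given as p62-EGFP minus EGFP of log2(signal + 16), fitted with limma over all tested probe sets, and adjusted p means Benjamini-Hochberg adjusted over all 13576 with a threshold of 0.05. At that threshold 0 of the 14 tested probe sets were higher and 0 were lower, where 0.0589% and 0.0295% of all tested probe sets were. An unadjusted p under 0.05 with a lower level was reached by 2 of the 14, Srebf2 1452174_at and Msmo1, against 5.77% of all tested probe sets. For 6 of the 14 both p62-EGFP signals were under both EGFP signals, for 1 of the 14 both were over them, and over all tested probe sets these shares were 22.2% and 26.7%. The smallest p that an exact two-sided permutation test of 2 tumors against 2 allows is 0.333.

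**Figure D1:**
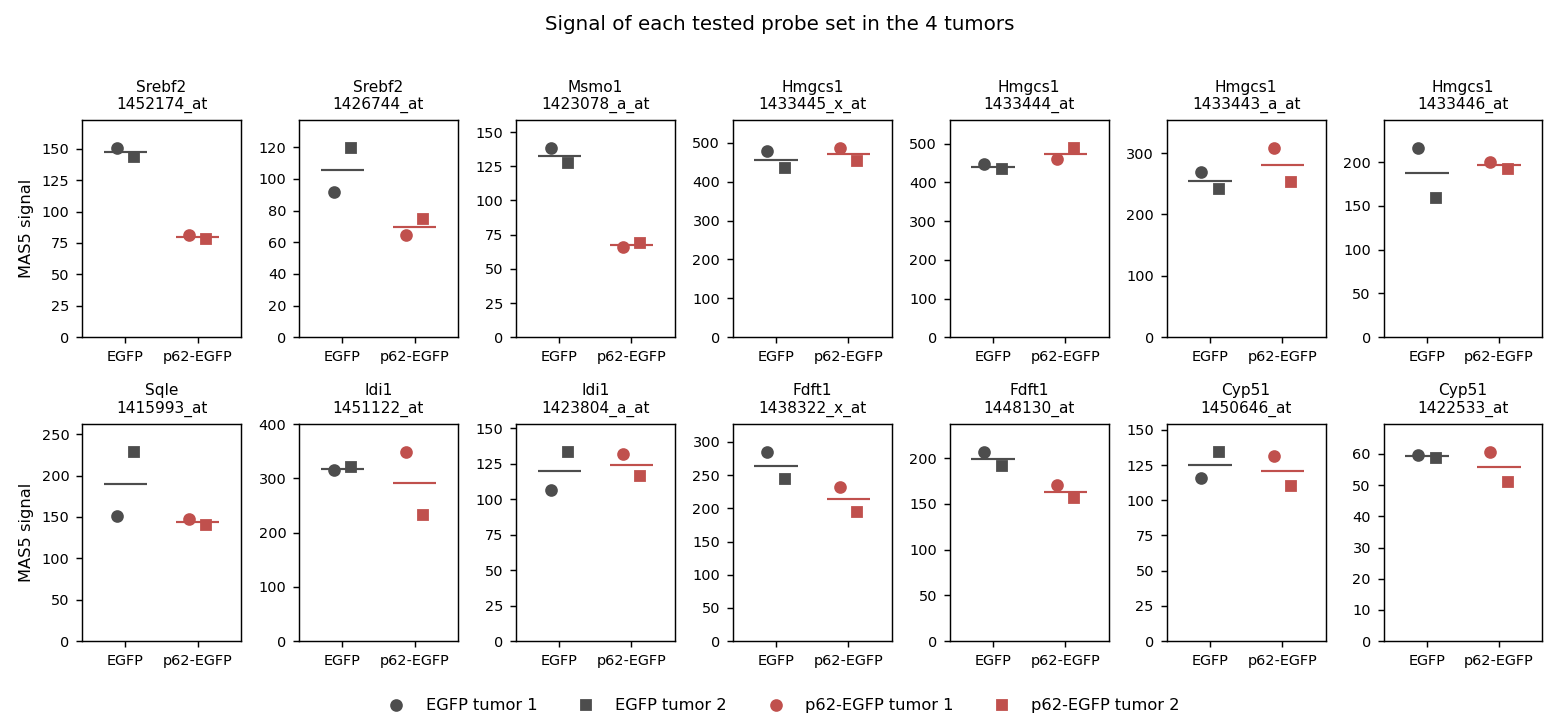
MAS5 signal (linear, each panel with its own axis from 0) of the 14 tested probe sets in the 2 EGFP tumors (grey) and the 2 p62-EGFP tumors (red), with circles for tumor 1, squares for tumor 2 and a line at each group mean. The groups are apart for Srebf2, Msmo1, Sqle and Fdft1 with the p62-EGFP tumors below, for Hmgcs1 1433444_at with them above, and overlap in the other 7 panels.

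Promoter sequence is shown for the pair of genes whose levels were lowest relative to EGFP tumors, Srebf2 and Msmo1, and for a pair of pathway genes whose groups overlapped on most or all probe sets, Hmgcs1 and Cyp51. SREBP2 binds sterol regulatory elements and works beside the factor NF-Y, which binds CCAAT. The windows are RefSeq sequence of GRCm38.p6, 300 bases from 250 before the annotated gene start to 50 after it, and 6 of the 8 genes had one (Srebf2, Insig1, Hmgcs1, Idi1, Cyp51 and Msmo1). They lie at chr15:82147019-82147318 (plus strand) for Srebf2, chr8:64733529-64733828 (minus strand) for Msmo1, chr13:119690101-119690400 (plus strand) for Hmgcs1 and chr5:4104648-4104947 (minus strand) for Cyp51. Each is written 5′ to 3′ on the strand of its gene, and capitals mark matches to the motifs searched.
Srebf2: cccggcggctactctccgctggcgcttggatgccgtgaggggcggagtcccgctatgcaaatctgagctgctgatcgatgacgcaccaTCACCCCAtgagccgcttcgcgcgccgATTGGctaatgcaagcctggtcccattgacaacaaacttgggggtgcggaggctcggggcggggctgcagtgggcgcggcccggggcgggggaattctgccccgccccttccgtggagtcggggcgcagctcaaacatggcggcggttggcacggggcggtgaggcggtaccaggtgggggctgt
Msmo1: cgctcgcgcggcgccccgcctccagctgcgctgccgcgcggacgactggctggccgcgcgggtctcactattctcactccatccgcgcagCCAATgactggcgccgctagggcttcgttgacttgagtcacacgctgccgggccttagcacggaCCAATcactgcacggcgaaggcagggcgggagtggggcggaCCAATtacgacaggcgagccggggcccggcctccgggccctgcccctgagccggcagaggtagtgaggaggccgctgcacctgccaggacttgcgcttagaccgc
Hmgcs1: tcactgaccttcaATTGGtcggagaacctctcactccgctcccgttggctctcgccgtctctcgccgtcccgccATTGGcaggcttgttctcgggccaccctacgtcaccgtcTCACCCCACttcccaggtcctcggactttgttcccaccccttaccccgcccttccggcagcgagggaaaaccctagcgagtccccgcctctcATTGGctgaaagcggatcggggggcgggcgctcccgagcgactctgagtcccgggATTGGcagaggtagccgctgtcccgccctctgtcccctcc
Cyp51: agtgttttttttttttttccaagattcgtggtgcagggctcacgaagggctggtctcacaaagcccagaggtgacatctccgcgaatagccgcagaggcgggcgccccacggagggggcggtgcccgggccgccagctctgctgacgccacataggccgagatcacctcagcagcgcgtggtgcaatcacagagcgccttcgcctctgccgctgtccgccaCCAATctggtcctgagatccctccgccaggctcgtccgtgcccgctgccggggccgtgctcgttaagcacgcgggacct
The motifs were searched on both strands, as TCACNCCAC for the core of the sterol regulatory element, CCAAT for the NF-Y box (read as ATTGG where it lies on the other strand) and CACGTG for the E-box. The sterol core was found in 1 of the 6 windows, Hmgcs1 at position -137 from the gene start, and in 1.24% of all promoter windows of this length. CCAAT was found in 6 of 6 windows and in 37.4% of all windows. Msmo1 holds 3 copies on its own strand, at positions -160, -96 and -55, and Hmgcs1 holds 4 on the opposite strand. Cyp51 holds 1 at -29, and Srebf2 holds 1 on the opposite strand at -135. A shorter sterol motif, TCACCCCA, was added after the Srebf2 letters had been read, and it overlaps the core in Hmgcs1. It was found in 2 of 6 windows, Hmgcs1 and Srebf2 (at -162), and in 1.56% of all windows. The E-box was found only in the Insig1 window among the 6, and in 7.15% of all windows. The gene pair with lower levels and the pair without both hold CCAAT, and a match is a description of letters, not of binding.

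Srebf2, the gene of the pathway's transcription factor, was measured by a pair of probe sets that the array annotation ties to the same source sequence. On the brighter, 1452174_at, the signal was 150.5 and 143.6 with EGFP (tumors 1 and 2), then 81.7 and 78.0 with p62-EGFP (tumors 1 and 2). The tumors of a group nearly coincided and the groups were far apart. The mean was 147 ± 4.88 (SD, n = 2) against 79.9 ± 2.62 (SD, n = 2), a ratio of 0.543. The log2 difference was -0.77 (SE 0.16, 95% interval -1.17 to -0.36), with an adjusted p of 0.205 in limma. The 4 pairwise differences between single tumors ran from -0.825 to -0.708. On 1426744_at the EGFP tumors read 91.4 and 119.4 and the p62-EGFP tumors 64.7 and 74.9, again without overlap but with a wider spread. That gave a log2 difference of -0.49 (SE 0.20, 95% interval -0.999 to 0.012), with an adjusted p of 0.350 in limma. Among all tested probe sets, 3.69% had a difference at or below that of the first Srebf2 probe set and 8.87% at or below that of the second. In bulk tumor RNA, fewer cells that express a gene and less RNA per cell cannot be told apart.

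Msmo1 encodes the methylsterol oxidase that starts removal of the C4 methyl groups from sterols made downstream of CYP51. Its single probe set, 1423078_a_at, read 138.3 and 127.3 with EGFP, then 65.7 and 68.6 with p62-EGFP. As for Srebf2, both tumors of a group were close and the groups did not overlap. The mean was 132.8 ± 7.78 (SD, n = 2) against 67.15 ± 2.05 (SD, n = 2), a ratio of 0.506. Msmo1 had the largest log2 difference of the 14 tested probe sets, at -0.84 (SE 0.17, 95% interval -1.26 to -0.42), with an adjusted p of 0.196 in limma. A difference at or below it was found for 3.05% of all tested probe sets. The pairwise differences ran from -0.917 to -0.760.

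Whether Srebf2 and Msmo1 passed the threshold depended on which tumor was in the fit. Without EGFP tumor 1, Srebf2 1452174_at differed by -0.74 (adjusted p = 0.0150), Srebf2 1426744_at by -0.66 (adjusted p = 0.0289), Msmo1 by -0.79 (adjusted p = 0.0119) and Sqle by -0.61 (adjusted p = 0.0304) in limma. In that fit 4 of the 14 tested probe sets passed as lower, and 9.59% of all tested probe sets did. Without EGFP tumor 2, Srebf2 1452174_at differed by -0.80 (adjusted p = 0.0206) and Msmo1 by -0.89 (adjusted p = 0.0146), and 2 of the 14 passed as lower, where 4.40% of all did. Without either p62-EGFP tumor none passed, with limma adjusted p-values of 0.990 and 0.968 for both genes at differences of -0.74 to -0.86 for Srebf2 1452174_at and Msmo1 and of -0.58 to -0.41 for Srebf2 1426744_at. A fit with 1 EGFP tumor takes its spread from the more alike p62-EGFP pair, and a fit with 1 p62-EGFP tumor takes it from the less alike EGFP pair. Over all alternatives the adjusted p in limma ran from 0.0150 to 0.990 for Srebf2 1452174_at, from 0.0289 to 0.990 for Srebf2 1426744_at and from 0.0119 to 0.990 for Msmo1.

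Some other measured quantities moved in the same direction as Srebf2 and Msmo1, and some moved the other way. Endothelial markers, all 6 with a probe set, summed to 367 and 475.4 with EGFP, then 183.7 and 218.7 with p62-EGFP, with 5 of 6 lower in both. Mast cell markers summed to 555.1 and 395.5 against 67.9 and 45.2, with 4 of 4 lower in both p62-EGFP tumors. Immediate early genes, induced quickly by stress and growth signals, summed to 6346.5 and 2459.4 against 738.7 and 848.4, with 4 of 5 lower. Of 6 epithelial markers, 3 were higher in both p62-EGFP tumors and 0 were lower. Of 6 adipocyte markers with a probe set, 4 were higher and 1 was lower, but only 2 were bright enough to be tested. The tested ones were Car3, which was higher (4.1 and 120.7 against 794.2 and 279.2), and Fabp4, which was lower. Adipoq, Retn and Cidec were counted as higher but were too dim to be tested. Cldn7 of the epithelial and Mcpt4 of the mast cell markers were counted without being tested as well. Of all genes tested, 22.0% were lower in both p62-EGFP tumors and 26.4% were higher. The part of these marker and immediate early lists in the Srebf2 and Msmo1 differences was not tested. Genes that share their chromosomes were also lower, the median log2 difference being -0.20 for 309 genes of chromosome 15 (Srebf2 and Sqle) and -0.22 for 417 genes of chromosome 8 (Msmo1), against 0.01 for all genes tested. With each chromosome's median subtracted, the differences were -0.53 for Srebf2 1452174_at, -0.26 for Srebf2 1426744_at and -0.61 for Msmo1.

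**Figure D2:**
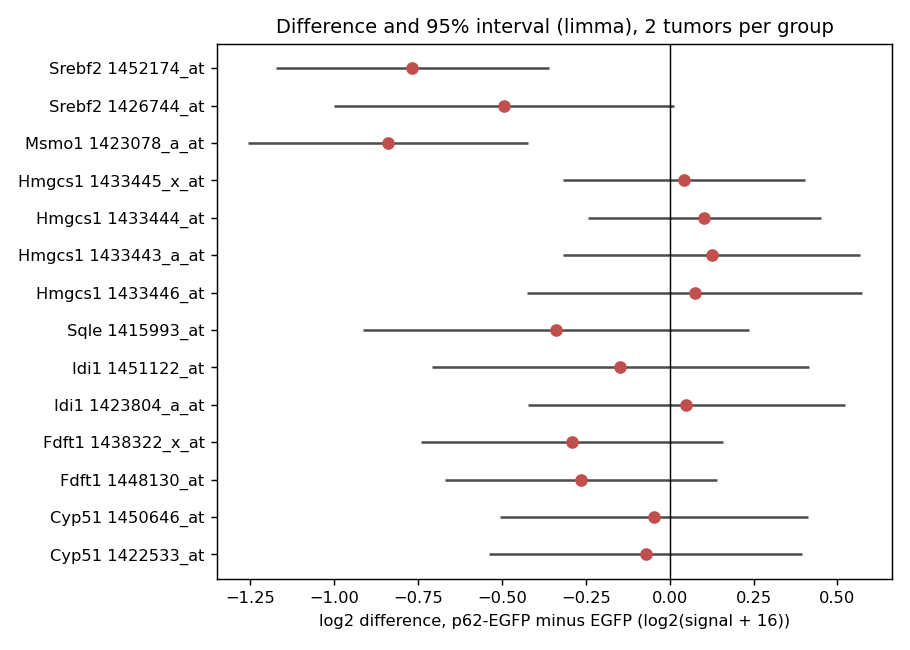
Log2 difference (p62-EGFP minus EGFP, log2(signal + 16)) of each tested probe set as a point, with its 95% interval from the limma fit as a line, 2 tumors per group. The intervals of Srebf2 1452174_at and Msmo1 lie below 0 and the other 12 include 0, and no adjusted p was under 0.05.

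Hmgcs1 encodes the cytosolic HMG-CoA synthase, an early enzyme of the mevalonate pathway and a well known SREBP2 target. All 4 of its probe sets were tested and all 4 differences were close to 0. The brightest, 1433445_x_at, read 478.3 and 435.8 with EGFP, then 486.6 and 454.7 with p62-EGFP, and the groups interleaved. Its log2 difference was 0.04 (SE 0.14, 95% interval -0.32 to 0.40), with an adjusted p of 0.907 in limma. On 1433444_at the EGFP tumors read 446.4 and 434.7 and the p62-EGFP tumors 460.7 and 488.7, a log2 difference of 0.10 (95% interval -0.24 to 0.45) with an adjusted p of 0.745 in limma. This was the 1 probe set of the 14 with both p62-EGFP tumors above both EGFP tumors. On 1433443_a_at the signals were 268.5 and 241.3 against 308.1 and 252.5, and on 1433446_at they were 216.1 and 159.2 against 200.1 and 192.5, with overlap in both. Their log2 differences were 0.12 and 0.07. Over the 4 probe sets the lowest interval bound was -0.42 and the highest 0.57, so a fall of the size seen for Msmo1 lay outside all 4 intervals. A probe set ending in _x_at can hold probes shared with other sequences, and here it read like the others.

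Idi1 encodes isopentenyl diphosphate isomerase, which interconverts the pair of isoprene building blocks. On 1451122_at the signal was 315.2 and 320.1 with EGFP, then 348.5 and 233.1 with p62-EGFP, so the p62-EGFP tumors lay on either side of the EGFP pair. The log2 difference was -0.15 (SE 0.22, 95% interval -0.71 to 0.41), with an adjusted p of 0.779 in limma. On 1423804_a_at the signals were 106.4 and 133.3 against 131.8 and 116.5, a log2 difference of 0.05 (95% interval -0.42 to 0.52). The probe sets gave opposite signs, and each interval held both negative and positive values.

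Fdft1 encodes squalene synthase, the first enzyme committed to sterols. Its brightest probe set, 1438322_x_at, read 284.7 and 243.8 with EGFP, then 231.8 and 194.9 with p62-EGFP. The gap between the groups was smaller than the spread within each. The mean was 264 ± 28.9 (SD, n = 2) against 213 ± 26.1 (SD, n = 2), a log2 difference of -0.29 (SE 0.18, 95% interval -0.74 to 0.16) with an adjusted p of 0.489 in limma. On 1448130_at the signals were 206.6 and 191.4 against 170.4 and 155.9, also without overlap. That difference was -0.26 (SE 0.16, 95% interval -0.67 to 0.14), with an adjusted p of 0.486 in limma. The other pair of Fdft1 probe sets was below the level for testing, at 6.5, 2.4, 8.8 and 3.5 on 1438918_at and 0.9, 3.1, 1.3 and 1.7 on 1438919_x_at (EGFP tumors 1 and 2, then p62-EGFP tumors 1 and 2). The bright pair therefore carried all the information on this gene.

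Sqle encodes squalene epoxidase, a rate-limiting oxygen-dependent step. Its probe set 1415993_at read 151.5 and 228.3 with EGFP, then 147.9 and 140.1 with p62-EGFP. EGFP tumor 2 was high, and the other 3 tumors lay between 140.1 and 151.5. The mean was 189.9 ± 54.3 (SD, n = 2) against 144 ± 5.52 (SD, n = 2). The log2 difference was -0.34 (SE 0.23, 95% interval -0.91 to 0.24), with an adjusted p of 0.526 in limma. Without EGFP tumor 2 it was -0.07 and without EGFP tumor 1 it was -0.61. EGFP tumor 2 was also the tumor with the highest macrophage markers, whose part in the Sqle value was not tested. With the median of chromosome 15 subtracted, the Sqle difference was -0.10.

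Cyp51 encodes lanosterol 14-alpha-demethylase, the first step after the sterol rings have formed. On 1450646_at the EGFP tumors read 115.6 and 134.2 and the p62-EGFP tumors 131.4 and 109.8, and on 1422533_at they read 59.8 and 58.7 against 60.6 and 50.9. The groups overlapped on both. The log2 differences were -0.05 (SE 0.18, 95% interval -0.51 to 0.41) and -0.07 (SE 0.19, 95% interval -0.54 to 0.39), with adjusted p-values of 0.920 and 0.874 in limma. The third probe set, 1422534_at, was too dim to test, at 4.5, 7.5, 11.1 and 8.1.

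Taking the brightest probe set of each gene, 4 of the 7 genes had both p62-EGFP tumors below both EGFP tumors and 0 of 7 above, where 22.0% and 26.4% of all genes tested did. The median log2 difference of the 7 was -0.29, against 0.01 over all genes tested. These genes were picked by name with earlier results of these data known, so the counts describe them and support no more. The other enzymes of cholesterol synthesis were centred near 0. Of 17 further enzymes, 14 had a probe set and 12 were tested, with a median difference of 0.07 that became -0.02 with chromosome medians subtracted. At an adjusted p under 0.05 in limma 0 of the 12 passed, and 0 had an unadjusted p under 0.05. Both p62-EGFP tumors were above both EGFP tumors for 2 of the 12, below both for 1, and the groups overlapped for 9. Acat1, listed here although it encodes the thiolase that makes acetoacetyl-CoA in mitochondria, read 797.2 and 875.7 against 1123.3 and 929.3. Its difference was 0.29 (adjusted p = 0.414 in limma). Acat2, also listed, had no probe set. Lbr, a nuclear membrane protein with sterol reductase activity, read 1148.7 and 1179.3 against 1396.2 and 1266.3, a difference of 0.19 (adjusted p = 0.460 in limma). Sc5d, a late desaturase, read 203.3 and 236.3 against 193.4 and 181.8, a difference of -0.21 (adjusted p = 0.585 in limma). Dhcr7, which completes one branch of the pathway, read 72.2 and 45.9 against 71.6 and 87.0, a difference of 0.36 (adjusted p = 0.522 in limma). Over all 18 tested enzymes, those named above included, the median was -0.0046.

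**Figure D3:**
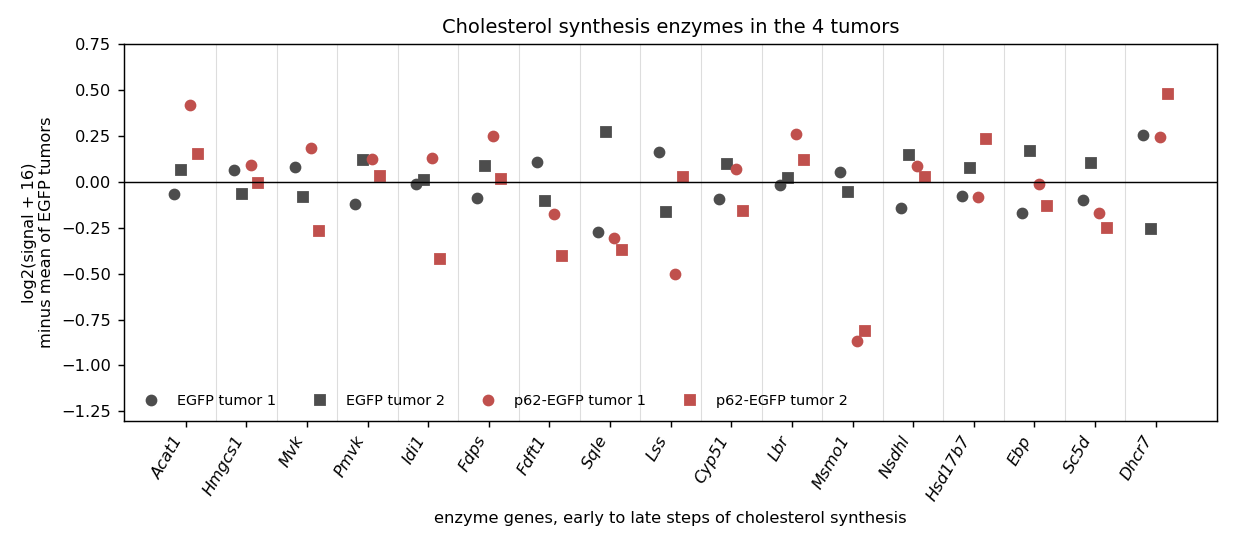
Log2(signal + 16) of 17 of the 18 tested enzyme genes (Ggps1, which leads to isoprenoids rather than sterols, is not drawn), each at its brightest probe set, in the 4 tumors (grey EGFP, red p62-EGFP, circles tumor 1, squares tumor 2), relative to the mean of the EGFP tumors and ordered from early to late steps. Msmo1 lies near -0.84 in both p62-EGFP tumors, and most of its neighbours along the pathway scatter around 0. Acat1, drawn first, encodes a mitochondrial thiolase.

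The regulators of SREBP processing showed no common direction. Of 10 listed, 6 had a probe set and were tested, 0 passed in limma and 0 had an unadjusted p under 0.05. Their median was -0.03, which became 0.0035 with arrays centred on their medians. Mbtps1, the site-1 protease that makes the first cut in SREBPs, read 688.7 and 711.3 with EGFP, then 575.2 and 641.5 with p62-EGFP (difference -0.20, adjusted p = 0.520 in limma). Insig2, the relative of Insig1, read 318.7 and 275.9 against 348.5 and 324.1 (difference 0.17, adjusted p = 0.638 in limma). Srebf1, the gene of the related factor that drives fatty acid synthesis, read 236.4 and 299 against 293.8 and 331.8, with overlap (difference 0.22, adjusted p = 0.602 in limma). Scap, the escort, read 346.2 and 361.4 against 334.3 and 351.8 (difference -0.04). Srebf2 thus differed from Srebf1 in sign, but that contrast between genes was not tested. Their chromosomes differed in sign as well. The median log2 difference was 0.30 over 697 genes of chromosome 11 (Srebf1) and -0.20 over 309 genes of chromosome 15 (Srebf2).

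The log2 differences of cholesterol uptake and transport genes ran from -0.78 to 0.07, most of them below 0. Of 12 listed, 10 were tested, with 5 below in both p62-EGFP tumors, 1 above and 4 overlapping, where 22.0% of all genes tested were below and 26.4% above. Their median was -0.22, and -0.14 without EGFP tumor 2. In limma 0 passed, and 1 had an unadjusted p under 0.05. That gene was Lrp1, a large endocytic receptor, at 123.2 and 205.6 against 76.9 and 96.9 (difference -0.78, adjusted p = 0.311 in limma). Scarb1, the HDL receptor, read 326.1 and 313.8 against 244.1 and 267.5 (difference -0.31, adjusted p = 0.410 in limma). Npc1, which exports cholesterol from lysosomes, read 93.8 and 84.4 against 65.4 and 72.1 (difference -0.31, adjusted p = 0.456 in limma). Lipa, the lysosomal acid lipase, read 222.1 and 535.5 against 212.3 and 219.5, a difference of -0.64 with EGFP tumor 2 alone high.

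The genes that answer to cholesterol excess, as targets of the oxysterol receptor LXR and in efflux, included a pair of sterol exporters that were highest in EGFP tumor 2. Of 8 listed, 6 were tested, 0 passed in limma and 0 had an unadjusted p under 0.05. Abcg1, a sterol exporter, read 85 and 395.5 against 79.8 and 72.1 (difference -1.15, adjusted p = 0.453 in limma). Abca1, the other main exporter, read 302 and 783.7 against 432 and 444.4, with overlap. The median of the 6 tested genes, -0.09, was -0.50 without EGFP tumor 1 and 0.10 without EGFP tumor 2. The macrophage markers had the same single high tumor, and their part in these values was not tested. Lpcat3, a phospholipid remodelling enzyme, was more even, at 303.2 and 233.5 against 208.8 and 196.5 (difference -0.37, adjusted p = 0.418 in limma). Abca2, a transporter of endosomes, read 43.4 and 33.9 against 61 and 57.2 (difference 0.46, adjusted p = 0.360 in limma).

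Fatty acid synthesis, the arm driven mainly by SREBP1, had a median of 0.04 over 13 tested genes of 15 listed, with 3 above in both p62-EGFP tumors, 4 below and 6 overlapping (26.4% and 22.0% of all genes tested were above and below). That median changed sign under several alternatives, down to -0.098 with chromosome medians subtracted. In limma 0 passed, and 1 had an unadjusted p under 0.05, Acly, which makes the cytosolic acetyl-CoA used for both fatty acids and cholesterol. It read 667.5 and 528.4 with EGFP, then 1348.9 and 1491 with p62-EGFP, a difference of 1.23 (SE 0.16) with an adjusted p of 0.145. Acly lies on chromosome 11, where the median over 697 genes was 0.30. Scd2, a stearoyl-CoA desaturase, read 812.3 and 1022 against 1349.4 and 1109.1 (difference 0.42, adjusted p = 0.347 in limma). Its relative Scd1 read 133.7 and 126.6 against 146.4 and 232 (difference 0.46, adjusted p = 0.436 in limma). Fads2, a fatty acid desaturase, read 140.9 and 90.7 against 69.6 and 83.6 (difference -0.49, adjusted p = 0.414 in limma).

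**Figure D4:**
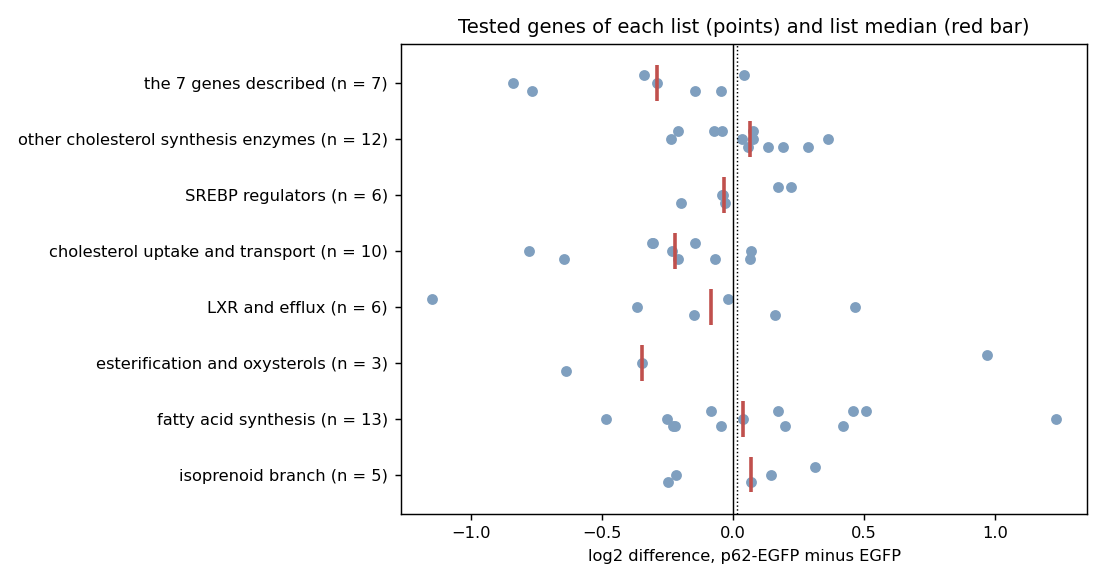
Log2 difference (p62-EGFP minus EGFP) of each tested gene, at its brightest probe set, in each list (points, moved vertically so that they can be seen), with the list median as a red bar, 0 as a solid line and the median of all genes tested, 0.01, as a dotted line. The medians run from -0.35 for the esterification and oxysterol list to 0.07 for the other synthesis enzymes and the isoprenoid branch. The 3 tested genes of the former list are Cyp7b1, Cyp27a1 and Ch25h, and no esterification gene was tested. The isoprenoid branch median was -0.13 without p62-EGFP tumor 2.

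Averaged over the 7 genes, the centred log2 profile was 0.15 and 0.19 with EGFP, then -0.09 and -0.25 with p62-EGFP. The tested genes with the closest profiles by Pearson r over the 4 tumors, among 5692 with a similar spread, were Galk2, Mlf2, Xrn1, Zfp91, Rassf8 and Ap1m1, with r from 0.9985 to 1.00 after rounding. Their log2 differences ran from -0.62 (Rassf8) to -0.19 (Zfp91), below 0 as the choice by this profile fixes. Over the 4 tumors 165 of the 5692 genes had an r above 0.95.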

How the data were processed

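Total RNA of 4 tumors was hybridized as biotin-labelled cRNA, 1 array each. The deposited values are linear signal intensities that the authors computed with MAS5, per the submitters' processing notes; its release and parameters were not given in the sources used here. As the 2% trimmed means were equal, the scaling was kept. The table held 22690 probe sets, 64 of them controls, and 20380 of the rest had 1 gene symbol in the array annotation. Signals were taken as log2(signal + 16), which understates changes of dim probe sets. Probe sets with a mean at or above the 40th percentile (5.60) were tested with limma 3.58.1 (lmFit, eBayes with trend, two-sided) in R 4.3.3, on 2 residual degrees of freedom, after the fit was tested on simulated data. limma took the place of Genes@Work, which the design text names. A gene in a list is its brightest probe set. Genes, lists and tests were chosen with earlier results of these data known. Named are all 8 genes, the 4 tested genes of each list with the smallest unadjusted p, every gene of a list with groups apart where 4 or fewer are, the 6 closest profiles, and Sqstm1. Alternatives covered scaling, the pseudocount (1 and 64), the filter, the variance trend, a replicate block, chromosome medians, averaged probe sets and each tumor left out. Sequences were matched by symbol to RefSeq tables (GRCm38.p6). Python 3.11.15, numpy 2.4.6, pandas 2.3.3 and matplotlib 3.10.9 were used. The 4 arrays limit the precision.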

Additional observations from a re-analysis of the deposited data

How the results depend on the processing

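Over 13 alternatives, 160 of 179 values of single probe sets kept their direction and their side of the threshold, 6 passed the threshold only with an EGFP tumor left out, and 13 changed sign. Chromosome medians subtracted gave -0.054 for Hmgcs1 1433445_x_at, -0.021 for Hmgcs1 1433446_at and -0.045 for Idi1 1423804_a_at. Leaving out 1 tumor at a time gave -0.023 to 0.11 for Hmgcs1 1433445_x_at, -0.011 to 0.26 for Hmgcs1 1433443_a_at, -0.13 to 0.28 for Hmgcs1 1433446_at, -0.42 to 0.13 for Idi1 1451122_at, -0.093 to 0.19 for Idi1 1423804_a_at, -0.16 to 0.068 for Cyp51 1450646_at and -0.17 to 0.026 for Cyp51 1422533_at. The count of these genes' probe sets past the threshold ran from 0 to 4 with 1 tumor left out, and was 0 under every other alternative. Of all tested probe sets 12 passed, against 6 with no filter, 7 with the filter at the 60th percentile, 37 with the replicate block and 0 to 2842 with 1 tumor left out; the cause was not tested. Tumors with the same number had deviations correlated at 0.082 and share only a number, and the replicate block called 0 probe sets of these genes. The median of the 7 genes, -0.29, stayed between -0.41 and -0.14 over the alternatives. Those shifts away from -0.29 were smaller than its replicate SD of 0.27. The median of the 3 tested oxysterol genes, Cyp7b1, Cyp27a1 and Ch25h, was -0.77 without EGFP tumor 1 and 0.28 without EGFP tumor 2. The 3 dim probe sets of Fdft1 and Cyp51 were left out of the test by their low signal.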

Other observations

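Genes that make or metabolize oxysterols differed between the EGFP tumors. Cyp7b1, an oxysterol hydroxylase, read 4.5 in EGFP tumor 1 and 71, 70.1 and 63.4 in the other 3 tumors, and its other probe set read 8.2 against 46.1, 49.8 and 54.9. The limma difference of the brighter was 0.97 (adjusted p = 0.532). Cyp27a1, a mitochondrial sterol hydroxylase, and Ch25h, which makes 25-hydroxycholesterol, were instead high in EGFP tumor 2 alone, at 105.6 against 51.9, 54.8 and 56, and at 115.1 against 20.8, 30 and 27.4.

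The isoprenoid branch, which draws on the same mevalonate pathway to modify proteins and lipids, had 5 tested genes, with 2 below in both p62-EGFP tumors, 1 above and 2 overlapping, where 22.0% of all genes tested were below and 26.4% above. Fnta, a subunit shared by protein prenyltransferases, read 752 and 661.6 with EGFP, then 641 and 567.9 with p62-EGFP (difference -0.22, adjusted p = 0.516 in limma). Dhdds, needed to make dolichol, read 115.8 and 96.9 against 81.1 and 92.7 on its brightest probe set (difference -0.25, adjusted p = 0.557 in limma). Its dimmer tested probe sets went the other way, with differences of 0.10 and 0.15 and with overlap between the groups. Rabggtb, a subunit of the Rab prenylating enzyme, read 334.7 and 384.7 against 389.5 and 408 (difference 0.15, adjusted p = 0.679 in limma). Fntb, the farnesyltransferase partner, read 60.1 and 51.8 against 54.6 and 96.6, with overlap. In limma 0 of the 5 passed, and 0 had an unadjusted p under 0.05.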
